A study of Sus scrofa with 19 samples.

Results

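The 7 genes described here are ANGPT2, TEK, KDR, PECAM1, ESAM, CD34 and ECSCR, which mark or regulate blood vessel endothelium. They were taken as the probe sets whose single gene symbol in the array annotation is one of these names. This gave 8 probe sets of 27558 on the array, 1 for each gene and a second for KDR. The dimmest 25% of the array, with a mean log2 signal under 3.23, was left out of the tests. Of the 8 probe sets 7 passed, 1 for each gene, and the second KDR probe set did not. Gene expression was measured on 1-colour Affymetrix arrays in whole adrenal glands of 19 male piglets, each born to a different sow. Per the labels' protocols, the sows' experimental diets began on gestation day 75 and on gestation day 112 some of the sows on each diet were given LPS and the others saline. LPS, lipopolysaccharide, is a cell wall component of bacteria that provokes inflammation. Every piglet, whatever its dam had received, was weaned at 21 days, was itself given LPS at 28 days and was killed 2 hours after that injection. The signals therefore describe glands in acute inflammation, and no gland of a piglet without its own LPS was analysed here.

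The fish oil diet had 4 piglets of LPS-treated dams (numbered 10, 19, 20 and 24 in the labels) and 4 of saline-treated dams (9, 11, 13 and 18). The microalgae diet had 2 of LPS-treated dams (7 and 23) and 3 of saline-treated dams (12, 15 and 22). The control diet had 3 of LPS-treated dams (6, 16 and 17) and 3 of saline-treated dams (8, 14 and 21). Fish oil and microalgae both supply long-chain omega-3 fatty acids. The labels do not state the amount fed. Below, "maternal LPS" and "maternal saline" always mean the dam's treatment.

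Endothelial cells line every vessel, and the adrenal cortex is threaded by a dense net of fenestrated capillaries that carries cholesterol in and steroid hormones out. Angiopoietins and vascular endothelial growth factors (VEGFs) are secreted signals that act through receptors on these cells to keep vessels quiet or make them grow and leak. ANGPT2 is stored in endothelial cells and released when they are activated, and it usually opposes the quieting signal of ANGPT1 at the receptor TEK.

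The arrays were close in level. Their medians lay between 4.38 and 4.52 log2, their interquartile ranges between 2.27 and 2.65 log2, and the correlation between any pair across probe sets between 0.934 and 0.982. Microalgae piglets 7, 15 and 23 had interquartile ranges of 2.49, 2.44 and 2.47 log2, and microalgae piglets 12 and 22 of 2.62 and 2.65 log2. The narrowest array, with 2.27 log2, was that of fish oil piglet 24. Of 33 listed endothelial identity and junction genes, the members included, 22 had a probe set of their own symbol, and all 22 passed the filter. Among them the endoglin gene ENG averaged 7.56 log2, the von Willebrand factor gene VWF 5.29 log2 and the tight junction gene CLDN5 4.76 log2. Each probe set has its own response, so levels cannot be compared between genes. In a whole gland, fewer cells of a type and less RNA per cell cannot be told apart.

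ANGPT2 (probe set 15238810), the ligand among the members, averaged 3.28 ± 0.385 log2 over all 19 piglets (SD). That is just above the level of the filter, and in 3 of the 6 groups, the maternal saline ones, its mean was below that level. The receptor TEK (probe set 15196945), also called TIE2, averaged 5.62 ± 0.277 log2. KDR (probe set 15322834), the main signalling receptor for VEGF, averaged 5.88 ± 0.274 log2. The other members are surface and junction proteins. PECAM1 (probe set 15206668), the adhesion molecule CD31 at endothelial contacts, averaged 6.71 ± 0.168 log2. ESAM (probe set 15330843), an adhesion molecule of tight junctions, averaged 5.13 ± 0.238 log2. CD34 (probe set 15328560), a sialomucin of capillary endothelium and of blood progenitors, averaged 5.06 ± 0.239 log2. ECSCR (probe set 15259665), a membrane glycoprotein of endothelial cells, averaged 5.58 ± 0.219 log2. Within groups the piglets were closest in CD34 and PECAM1, with pooled SDs of 0.159 and 0.164 log2, and furthest apart in ANGPT2, with 0.29 log2. The median within-group SD over all tested probe sets was 0.263 log2.

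**Figure D1:**
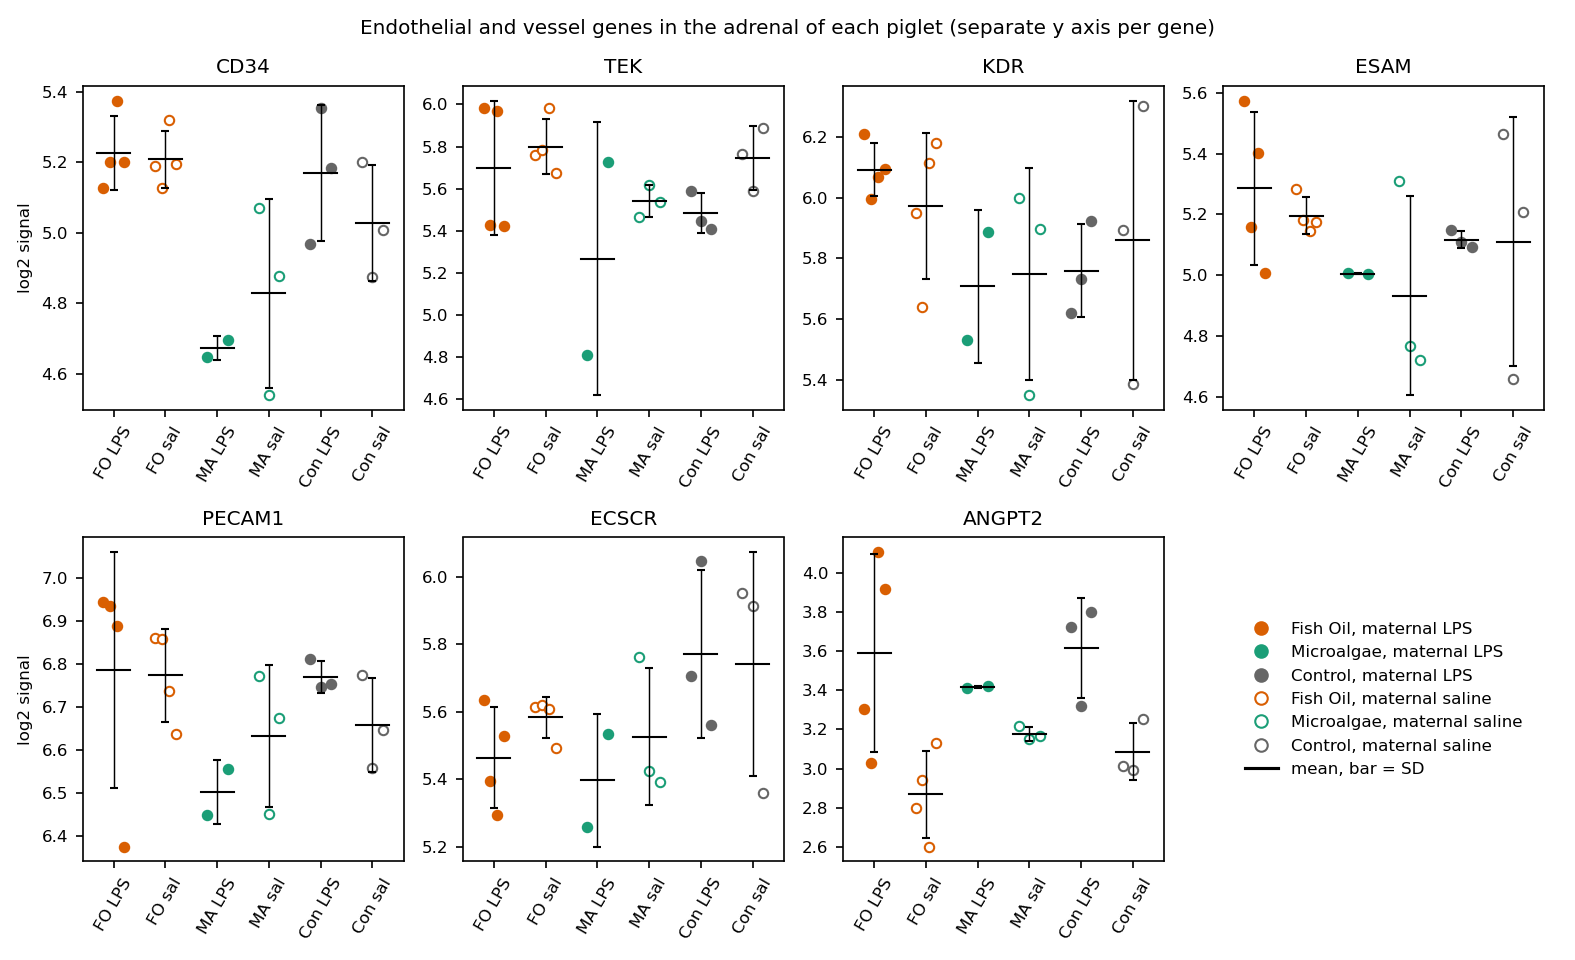
Log2 signal (y axis, its own scale for each gene) of the 7 genes in each piglet by group on the x axis (FO, fish oil; MA, microalgae; Con, control; sal, saline). Filled points are maternal LPS and open points maternal saline, lines are group means and bars SDs; in CD34 the 8 fish oil piglets, 5.13 to 5.38, lie above the 5 microalgae piglets, 4.54 to 5.07, and in ANGPT2 the lowest means are the 3 maternal saline groups.

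The diets were first set against each other as the mean over both maternal treatments, to see whether the source of omega-3 fats mattered. Among the members, fish oil and microalgae offspring differed most in CD34. The fish oil piglets of LPS-treated dams had 5.13, 5.20, 5.38 and 5.20 log2, against 4.65 and 4.70 log2 in the microalgae piglets of LPS-treated dams. The fish oil piglets of saline-treated dams had 5.19, 5.13, 5.32 and 5.20 log2, against 5.07, 4.54 and 4.88 log2 in the microalgae piglets of saline-treated dams. All 8 fish oil piglets were above all 5 microalgae piglets, which was so for 0.0242% of all tested probe sets in this direction. The mean was 5.22 log2 in fish oil and 4.75 log2 in microalgae offspring, a difference of 0.47 ± 0.107 log2 (SE; 95% confidence interval 0.24 to 0.69, 1.38-fold). In the limma model across all probe sets the unadjusted p was 0.000395, rank 2 of 20668, and the adjusted p was 1.0. CD34 therefore did not pass the threshold of 0.05. With any single piglet left out the difference lay between 0.39 and 0.53 log2. CD34 was chosen with earlier results of these data known, so its p and these fits are descriptions.

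For the receptors TEK and KDR the diets overlapped, and neither gene passed after adjustment. TEK had 5.98, 5.43, 5.97 and 5.42 log2 in fish oil piglets of LPS-treated dams and 5.76, 5.78, 5.98 and 5.67 log2 in those of saline-treated dams. Microalgae piglets had 4.81 and 5.73 log2 after maternal LPS and 5.47, 5.62 and 5.54 log2 after maternal saline. The value of 4.81 log2, of piglet 7, was the lowest of all 19, and the other 4 microalgae piglets lay within the fish oil range. The TEK difference was 0.35 ± 0.147 log2 (limma unadjusted p = 0.0302, adjusted 1.0), but 0.12 log2 without piglet 7 (unadjusted p = 0.419) and 0.58 log2 without piglet 23 (unadjusted p = 0.000815). KDR ranged from 5.64 to 6.21 log2 (median 6.08) in fish oil and from 5.35 to 6.0 log2 (median 5.89) in microalgae offspring, a difference of 0.30 ± 0.155 log2 (limma unadjusted p = 0.066). The second, dim KDR probe set (15320451) averaged 3.17 log2, below the filter, and differed by 0.28 log2. That difference came from the maternal LPS groups, with means of 3.13 log2 in fish oil and 2.42 log2 in microalgae offspring, while after maternal saline the means were 3.10 log2 in fish oil and 3.26 log2 in microalgae offspring. Its correlation with the first was 0.16 over the 19 arrays.

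Among the junction genes, ESAM differed by 0.27 ± 0.14 log2 between fish oil and microalgae offspring and PECAM1 by 0.21 ± 0.111 log2, with overlapping groups and limma unadjusted p-values of 0.0683 and 0.072. ESAM ranged from 5.01 to 5.57 log2 (median 5.18) in fish oil and from 4.72 to 5.31 log2 (median 5.0) in microalgae offspring. PECAM1 ranged from 6.37 to 6.94 log2 (median 6.86) in fish oil and from 6.45 to 6.77 log2 (median 6.55) in microalgae offspring. The lowest PECAM1 value of all piglets was in a fish oil piglet, number 24, and without that piglet the difference was 0.28 log2 (unadjusted p = 0.00629). This was the one of the 19 fits with a piglet left out in which PECAM1 had an unadjusted p under 0.05, and the lowest difference among them was 0.17 log2, without piglet 15. The remaining members differed little, ECSCR by 0.06 ± 0.125 log2 (95% confidence interval -0.20 to 0.33) and ANGPT2 by -0.07 ± 0.165 log2 (-0.42 to 0.28). In all, 6 of the 7 members averaged higher in fish oil than in microalgae offspring, against 48.7% of all tested probe sets. Their median difference was 0.27 log2, where the median of all probe sets was -0.0042. At an unadjusted p under 0.05, 2 of the 7 were higher, against 1.55% of all tested, and 0 were lower, against 1.3%. After adjustment 0 of the 7 passed, as did 0% of all tested probe sets. The members were chosen with earlier results of these data known, and they share arrays. The counts of members, here and below, are therefore descriptions and not a test of the members as a set.

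The difference in CD34 had the same direction under both maternal treatments, which together make up the comparison above. It was 0.55 ± 0.161 log2 after maternal LPS (limma unadjusted p = 0.00293, adjusted 0.666) and 0.38 ± 0.142 log2 after maternal saline (unadjusted p = 0.0155, adjusted 1.0). After maternal LPS, 4 fish oil against 2 microalgae piglets, CD34, KDR and ESAM did not overlap and were higher, 3 of 7 members against 5.7% of all tested. For ESAM the nearest piglets of the 2 diets were both at 5.01 log2. After maternal saline, 4 against 3 piglets, CD34 and TEK did not overlap and were higher, 2 of 7 against 2.1% of all tested. ANGPT2 did not overlap and was lower, 1.72% of all tested lying this way. Both of these ANGPT2 means, 2.87 log2 in fish oil and 3.18 log2 in microalgae offspring, were below the level of the filter.

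**Figure D2:**
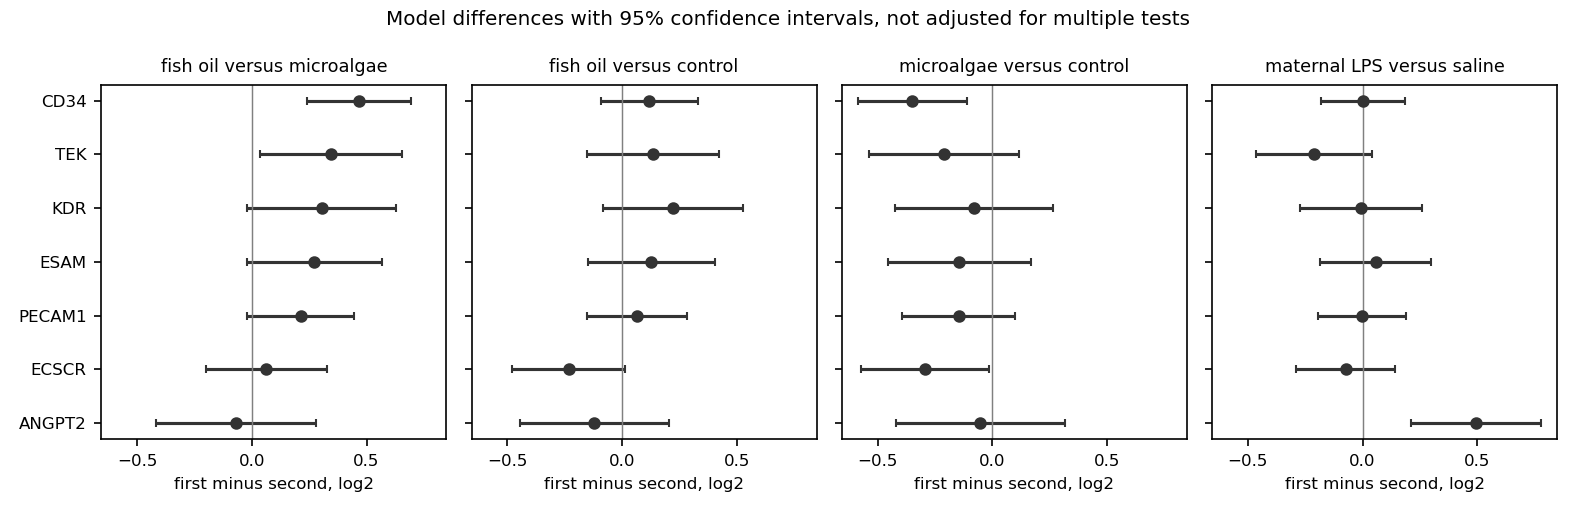
Differences in log2 signal (x axis) of the 7 genes (y axis) in the 4 comparisons, the group named first minus the other, with 95% confidence intervals of the limma model that are not adjusted for multiple tests. The interval excludes 0 for CD34 and TEK in fish oil versus microalgae, for CD34 and ECSCR in microalgae versus control, and for ANGPT2 in maternal LPS versus saline.

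The microalgae offspring were then set against the control diet. This comparison uses the same 5 microalgae piglets as the one above, so the results of both are not independent. CD34 averaged 4.75 log2 in microalgae and 5.10 log2 in control offspring, a difference of -0.35 ± 0.114 log2 (limma unadjusted p = 0.00675, adjusted 1.0). The control piglets had 4.97, 5.35 and 5.18 log2 after maternal LPS and 5.20, 4.87 and 5.01 log2 after maternal saline, and the 2 highest microalgae piglets overlapped them. ECSCR ranged from 5.26 to 5.76 log2 (median 5.43) in microalgae and from 5.36 to 6.05 log2 (median 5.81) in control offspring. Its difference was -0.29 ± 0.133 log2 (limma unadjusted p = 0.0401), and its p stayed under 0.05 in 13 of the 19 fits that left out 1 piglet. TEK differed by -0.21 ± 0.156 log2, PECAM1 by -0.15 ± 0.118, ESAM by -0.14 ± 0.149, KDR by -0.08 ± 0.164 and ANGPT2 by -0.05 ± 0.175 log2, with 95% confidence intervals that all include 0. The dim second KDR probe set gave a larger difference than the first, -0.61 log2 (unadjusted p = 0.002). All 7 members averaged lower in microalgae than in control offspring, as were 49% of all tested probe sets, and the median of the members was -0.15 log2. At an unadjusted p under 0.05, 2 of the 7 were lower, against 0.789% of all tested. After adjustment 0 of 7 passed, and 0% of all tested. After maternal LPS, 2 microalgae against 3 control piglets, CD34, ESAM, PECAM1 and ECSCR did not overlap and were lower, 4 of 7 against 8.06% of all tested.

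Fish oil was also set against the control diet, with the same piglets of each diet as above. The 2 KDR probe sets disagreed in direction, the first with 0.22 ± 0.145 log2 and the dim second with -0.33 log2 (unadjusted p = 0.0384). TEK differed by 0.14 ± 0.137, ESAM by 0.13 ± 0.131, CD34 by 0.12 ± 0.1 and PECAM1 by 0.06 ± 0.104 log2. ANGPT2 differed by -0.12 ± 0.154 log2. ECSCR, like ANGPT2, was a member for which both fish oil and microalgae offspring averaged below control, with 5.52 log2 in fish oil and 5.76 log2 in control offspring (difference -0.23 ± 0.117 log2, limma unadjusted p = 0.063). After maternal LPS, 4 fish oil against 3 control piglets, KDR did not overlap and was higher, as was so for 1.78% of all tested. The fish oil piglets spanned 5.29 to 5.64 log2 in ECSCR and the control piglets 5.36 to 6.05 log2. Of the 7 members 5 were higher in fish oil, against 50.4% of all tested, and the median of the members was 0.12 log2. None of the 7 had an unadjusted p under 0.05, against 2.69% of all tested, and 0 passed after adjustment, as did 0% of all tested.

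The effect of maternal LPS, as the mean over the 3 diets, was largest among the members in the ligand ANGPT2. ANGPT2 had 3.30, 3.03, 4.11 and 3.92 log2 in fish oil piglets of LPS-treated dams, against 2.80, 2.94, 2.60 and 3.13 log2 in those of saline-treated dams. It had 3.41 and 3.42 log2 in microalgae piglets of LPS-treated dams, against 3.22, 3.15 and 3.17 log2 in those of saline-treated dams. It had 3.72, 3.32 and 3.80 log2 in control piglets of LPS-treated dams, against 3.01, 2.99 and 3.25 log2 in those of saline-treated dams. Over all diets the 9 piglets of LPS-treated dams lay between 3.03 and 4.11 log2 (median 3.42) and the 10 of saline-treated dams between 2.60 and 3.25 log2 (median 3.07). The ranges overlapped through fish oil piglet 19. The difference was 0.50 ± 0.135 log2 (95% confidence interval 0.21 to 0.78, 1.41-fold), with a limma unadjusted p of 0.00178, rank 86 of 20668, and an adjusted p of 0.413. It lay between 0.44 and 0.56 log2 with any single piglet left out. ANGPT2 passed the filter through its maternal LPS values, and the maternal saline values lie where the array separates levels poorly. The size of the difference is therefore uncertain. Its p-values for maternal LPS, here and below, are descriptions, and no support for a difference is drawn from them.

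Within diets, ANGPT2 was higher after maternal LPS by 0.72 ± 0.202 log2 in fish oil (limma unadjusted p = 0.00229, adjusted 0.439), 0.24 ± 0.261 in microalgae (unadjusted p = 0.373) and 0.53 ± 0.233 log2 in control offspring (unadjusted p = 0.0365). The groups did not overlap in microalgae offspring, as for 16.9% of all tested probe sets in this direction, and in control offspring, as for 3.06%. They overlapped in fish oil offspring, the diet with the largest difference, where the maternal LPS piglets also spread the most (SD 0.506 log2).

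The receptor of ANGPT2, TEK, differed after maternal LPS by -0.21 ± 0.12 log2 (limma unadjusted p = 0.0937), with -0.10 in fish oil, -0.27 in microalgae and -0.26 log2 in control offspring. The difference was -0.06 log2 without piglet 7 (unadjusted p = 0.595), and it was -0.37 log2 without piglet 23 (unadjusted p = 0.00409, adjusted 0.708). CD34, PECAM1 and KDR differed by 0.00, 0.00 and -0.01 log2, with 95% confidence intervals of -0.18 to 0.18, -0.19 to 0.19 and -0.27 to 0.26 log2. The dim second KDR probe set differed by -0.25 log2 (limma unadjusted p = 0.0706). Its means after maternal LPS and saline were 2.42 and 3.26 log2 in microalgae offspring. They were 3.13 and 3.10 log2 in fish oil and 3.48 and 3.41 log2 in control offspring. ESAM differed by 0.06 ± 0.114 and ECSCR by -0.07 ± 0.102 log2. Of the 7 members, ANGPT2 alone had an unadjusted p under 0.05, upward, as had 3.37% of all tested, and 0 had one downward, against 3.59%. Since ANGPT2 passed the filter through its maternal LPS values, nothing is read from this count. After adjustment 0 members passed, and 0.00968% of all tested, or 2 probe sets. The median of the members was 0.00 log2.

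Whether the effect of maternal LPS depended on the diet was tested with an F test in the same model. None of the 7 members had an unadjusted p under 0.05, against 4.75% of all tested, and 0 passed after adjustment, as did 0% of all tested. The largest F was that of ANGPT2, 1.07 (limma unadjusted p = 0.366), followed by CD34 with 0.86 (unadjusted p = 0.44). No difference between diets in the effect of maternal LPS was thus detected in these genes.

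Across the 19 arrays 5 of the genes were positively correlated with one another. CD34, TEK, KDR, ESAM and PECAM1 had pairwise Pearson correlations between 0.34 and 0.68 (median 0.53), the highest between the 2 junction genes ESAM and PECAM1. With group means removed, the 10 correlations lay between 0.05 and 0.63 (median 0.35), and without piglet 7 between 0.14 and 0.68. ECSCR, though an endothelial gene, correlated with the other members by -0.26 to 0.29, and ANGPT2 by -0.26 to 0.08. These values are descriptions, since the points share arrays and RNA samples. The 5 genes were grouped with these data known, so their shared sign is no support for the grouping. No test of the grouping was made.

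**Figure D3:**
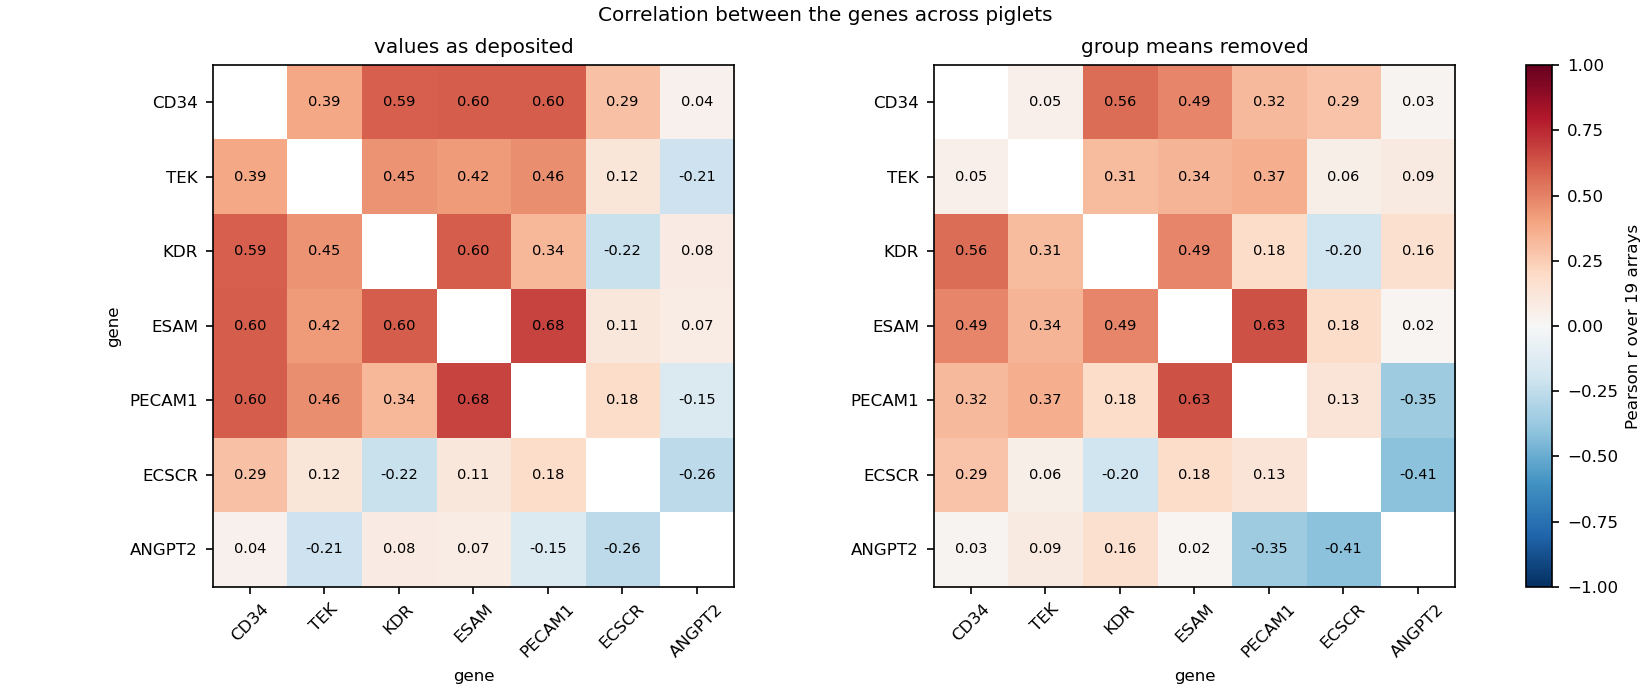
Pearson correlations between the log2 signals of the 7 genes (both axes) over 19 arrays, as deposited on the left and with group means removed on the right, on a colour scale from -1 to 1. The 5 genes CD34, TEK, KDR, ESAM and PECAM1 have positive values with one another, 0.34 to 0.68 on the left and 0.05 to 0.63 on the right. ECSCR and ANGPT2 have positive and negative values with the other members.

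The mean of the 7 members, each centred on its own mean, lay between -0.02 and 0.26 log2 in fish oil offspring, between -0.31 and 0.05 in microalgae offspring and between -0.19 and 0.11 in control offspring. Among 10692 other probe sets with 1 gene symbol, those whose signals most resembled this mean were SMAP2 (r = 0.85), which acts in vesicle traffic, LOC100517735 (0.80), TIMP3 (0.73), a matrix-bound inhibitor of metalloproteases, the splicing factor PRPF19 (0.73) and the Golgi protein gene GORASP1 (0.71). TIMP3 was also the closest to CD34 alone (0.74), with MXRA8 next (0.74). ESAM was closest to TTC26 (0.78) and to DNASE1L3 (0.76), a secreted DNase. ECSCR was closest to PHGDH (0.75) and to DLL4 (0.74), the Notch ligand of sprouting and arterial endothelium. TEK was closest to AAMDC (0.78) and FITM2 (0.77), KDR to DPH3 (0.73) and USP38 (0.72), PECAM1 to SS18L2 (0.80) and PTPRA (0.79), and ANGPT2 to LOC100513976 (0.70) and VSIG10 (0.68). These are the extremes of many correlations over 19 arrays.

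Vessel genes beyond the members were counted next. Of 89 further genes in 7 lists, 61 were measured and 59 tested. Between fish oil and microalgae offspring 37 of the 59 were higher in fish oil, against 48.7% of all tested probe sets, with a median difference of 0.06 log2. At an unadjusted p under 0.05, 0 were higher, against 1.55% of all tested, and 1 was lower, or 1.69%, against 1.3%. Of the 16 endothelial identity and junction genes other than the members, 12 were higher in fish oil offspring, with a median of 0.08 log2. The largest of these differences was that of MCAM, an adhesion molecule of endothelium and mural cells (0.28 ± 0.135 log2, limma unadjusted p = 0.0535). The 9 tested VEGF pathway genes were divided, 4 higher and 5 lower. Against the control diet, microalgae offspring had 36 of 59 lower, against 49% of all tested. DLL4, the second closest gene to ECSCR, was the single one with an unadjusted p under 0.05 (-0.33 ± 0.14 log2, unadjusted p = 0.0303), or 1.69% of the 59, against 0.789% of all tested. Fish oil against control had 28 of 59 higher, against 50.4% of all tested, and 0 with an unadjusted p under 0.05 either way, against 2.69%. In none of the 4 comparisons did any of the 59 pass after adjustment.

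Maternal LPS gave 5 of the 59 higher and 3 lower at an unadjusted p under 0.05, or 8.47% and 5.08%, against 3.37% and 3.59% of all tested. Of these 5, 3 were in the list of the angiopoietin and TEK pathway, to which ANGPT2 and TEK belong and which had 6 further genes tested. TNIP2, an inhibitor of NF-kB signalling known to bind TEK in human cells, averaged 4.72 log2 after maternal LPS and 4.35 log2 after maternal saline (0.37 ± 0.137 log2, limma unadjusted p = 0.0156). FOXO1, the transcription factor that TEK signalling restrains and that activates ANGPT2, averaged 3.70 log2 after maternal LPS and 3.42 log2 after maternal saline (0.28 ± 0.118 log2, unadjusted p = 0.0291). SVEP1, a matrix protein, averaged 4.56 log2 after maternal LPS and 4.32 log2 after maternal saline (0.23 ± 0.102 log2, unadjusted p = 0.0364). In all 3 genes the maternal LPS and saline piglets overlapped, for TNIP2 with 4.11 to 5.24 log2 after maternal LPS and 4.16 to 4.55 log2 after maternal saline. ANGPT1, the opposing ligand, differed by 0.03 ± 0.179 log2. The direction of a list member is described here, and no test of the list was made.

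In the Notch and vessel growth list, UNC5B, a netrin receptor of sprouting vessels, was higher after maternal LPS by 0.20 ± 0.0835 log2 (limma unadjusted p = 0.0271) and NRARP, which limits Notch signalling, by 0.24 ± 0.101 log2 (unadjusted p = 0.0306). HEY1, a repressor that Notch switches on, differed by -0.27 ± 0.1 log2 (unadjusted p = 0.0149), and the endothelial lectin gene CLEC14A by -0.19 ± 0.0903 log2 (unadjusted p = 0.0483). PROX1, the regulator of lymphatic endothelial identity, which other cell types also make, had the largest difference of the 59. It averaged 6.07 log2 after maternal LPS and 6.57 log2 after maternal saline (-0.49 ± 0.14 log2, unadjusted p = 0.00252), with piglets at 5.50 to 6.76 log2 after maternal LPS and 6.19 to 7.06 log2 after maternal saline. It was also the gene that was lower in fish oil than in microalgae offspring (-0.38 ± 0.171 log2, unadjusted p = 0.0405). Of the adhesion molecules that inflamed endothelium displays, VCAM1 differed by -0.24 ± 0.127 log2 (unadjusted p = 0.0721) and ICAM1 by 0.01 ± 0.106 log2. Of the 59, 4 had an unadjusted interaction p under 0.05, or 6.78%, against 4.75% of all tested, and 0 passed after adjustment. The 4 were F11R (unadjusted p = 0.00402), the junction molecule JAM-A, CAV1 (unadjusted p = 0.0146), the coat protein of caveolae, PLXND1 (unadjusted p = 0.0495), a semaphorin receptor, and ESM1 (unadjusted p = 0.04), which was named after its value was seen.

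**Figure D4:**
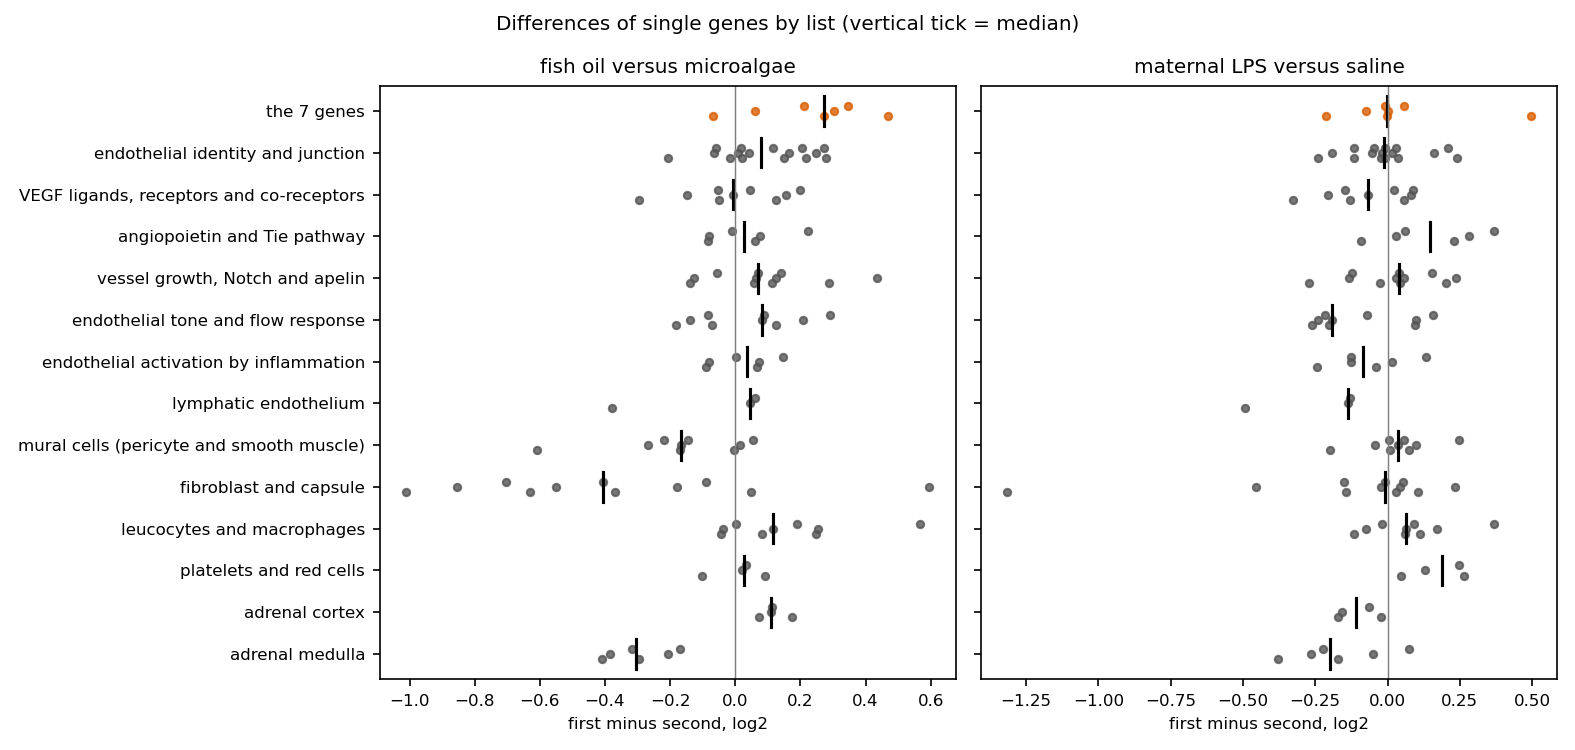
Differences in log2 signal (x axis) of single genes in fish oil versus microalgae (left) and maternal LPS versus saline (right), by list on the y axis, with the 7 genes in orange in the top row and a vertical tick at each median. The median of the 7 genes is 0.27 log2 on the left and 0.00 log2 on the right, where ANGPT2, at 0.50, stands to the right of the other members.

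Marker genes of the other cell types of a whole gland were compared between fish oil and microalgae offspring in the same way. None passed after adjustment, and 0% of all tested. At an unadjusted p under 0.05 there was 1 fibroblast and capsule gene of 11, downward, against 1.3% of all tested. There was also 1 leucocyte and macrophage gene of 9, upward, against 1.55%. By direction alone, 48.7% of all tested probe sets were higher in fish oil offspring. The genes of a list share the same glands, so the counts that follow are descriptions. Fibroblast and capsule genes averaged lower in fish oil offspring in 9 of 11 cases (median -0.40 log2), adrenal medulla genes in 6 of 6 (-0.31) and mural cell genes, of pericytes and smooth muscle, in 7 of 9 (-0.17). Leucocyte and macrophage genes were higher in 7 of 9 cases (0.11) and adrenal cortex genes in 4 of 4 (0.11), while genes of platelets and red cells, 3 of 4 higher, had a median of 0.03 log2. The mean relative level of a list in each piglet overlapped between the diets throughout. For fibroblasts it ranged from -1.05 to 0.40 log2 in fish oil and from -0.32 to 0.78 log2 in microalgae offspring. For the medulla it was -0.73 to 0.61 log2 in fish oil and -0.49 to 0.83 log2 in microalgae offspring. For mural cells it was -0.60 to 0.22 log2 in fish oil and -0.05 to 0.13 log2 in microalgae offspring. For leucocytes it was -0.17 to 0.43 log2 in fish oil and -0.22 to 0.12 log2 in microalgae offspring, and for the cortex -0.13 to 0.21 log2 in fish oil and -0.26 to 0.18 log2 in microalgae offspring. The macrophage receptor gene MRC1, which some sinusoidal endothelium also makes, averaged 5.89 log2 in fish oil and 5.32 log2 in microalgae offspring (0.57 ± 0.212 log2, limma unadjusted p = 0.0155). With the medulla level of each gland as a covariate the CD34 difference was 0.44 log2 (limma unadjusted p = 0.000984), against 0.47 log2 without it. The TEK difference was 0.31 log2 with this covariate (limma unadjusted p = 0.0568), against 0.35 log2 without it. With the spread of each array as a covariate the differences were 0.44 log2 in CD34, 0.33 log2 in TEK and 0.17 log2 in PECAM1. Without it the PECAM1 difference was 0.21 log2. The part of the medulla, of the other cell types and of the array spread in these differences was not tested.

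After maternal LPS, genes of platelets and red cells averaged higher in 4 of 4 cases (median 0.19 log2), adrenal cortex genes lower in 4 of 4 (-0.11) and medulla genes lower in 5 of 6 (-0.20), and their levels overlapped between the treatments. The median difference over all tested probe sets was 0.0070 log2, and their share in each direction was not counted. The genes of a list share the same glands. The counts in this paragraph are therefore descriptions, and no change in cell types is read from them. The platelet and red cell level ranged from -0.19 to 0.39 log2 after maternal LPS and from -0.33 to 0.08 log2 after maternal saline. Of 6 measured genes of platelets and red cells 4 passed the filter. Their means were low, from 3.25 log2 in GP1BA, just above the level of the filter, to 4.11 log2 in ITGA2B. Leucocyte genes were higher in 6 of 9 cases, with a median of 0.06 log2, and fibroblast genes in 5 of 11 and mural cell genes in 7 of 9, with medians of -0.01 and 0.04 log2. With the medulla level as a covariate the ANGPT2 difference was 0.49 log2 (limma unadjusted p = 0.00286), and with the spread of each array as a covariate 0.46 log2 (unadjusted p = 0.00529). The part of the medulla, of platelets and of red cells in the ANGPT2 difference was not tested.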

How the data were processed

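The values are log2 signals that the authors deposited, 1 column per piglet. Per the submitters' processing notes, Transcriptome Analysis Console 4.0 was used. The summarization and normalization are not given in the sources used here, and base 2 was inferred from the range of 0.263 to 13.5. No further scaling was applied. Of 27558 probe sets, 13157 had 1 gene symbol in the array annotation, 523 had several and 13878 none. None of those with several symbols held a member. For a gene with several probe sets the brightest was used. The 20668 probe sets past the filter were tested with limma 3.58.1 in R 4.3.3, with a separate mean for every one of the 6 groups, an intensity trend in eBayes and two-sided tests. Adjustment was by Benjamini-Hochberg over all of them, with a threshold of 0.05. The ± beside a difference is its SE. The number of arrays limits the precision. All members are named. From each vessel list, up to 4 genes with the smallest unadjusted p are named, and the genes most like the members by correlation. The members and lists were chosen with earlier results of these data known. The workflow was tested on simulated data. The alternatives were 2 other filters, quantile normalization, median centring, array weights, an additive model, 2 covariates, no intensity trend, piglets 6 and 24 left out together, each piglet left out in turn and the second KDR probe set.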

Additional observations from a re-analysis of the deposited data

Results flagged for a closer look

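In the fish oil groups, the only ones with 4 piglets, the highest and lowest piglet of each probe set was compared with the range of its group, in 16 tests. Chance marks about 1 in 20 groups in this way. PECAM1 in fish oil piglet 24 of an LPS-treated dam was 6.37 log2, where the other 3 piglets lay between 6.89 and 6.94 log2. ECSCR in fish oil piglet 18 of a saline-treated dam was 5.49 log2, where the other 3 lay between 5.61 and 5.62 log2. Piglet 24 also had the narrowest array, with an interquartile range of 2.27 log2.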

How the results depend on the processing

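No member passed the adjusted threshold in any of the 4 comparisons or the interaction under any alternative, 0 in each. The fits without piglet 7 or without piglet 23 leave 1 microalgae piglet of an LPS-treated dam, which is assumed to vary like the other groups. The members' median difference lay between 0.19 and 0.33 log2 for fish oil versus microalgae, -0.25 and -0.10 for microalgae versus control, 0.04 and 0.14 for fish oil versus control, and -0.05 and 0.05 for maternal LPS. Besides the fits that left out 1 piglet, CD34 was 0.44 to 0.50 log2 higher in fish oil than in microalgae offspring and ANGPT2 0.43 to 0.54 log2 higher after maternal LPS. ANGPT2 could not be tested with the dimmer 50% of probe sets left out. Of 28 differences of members, 9 took the other sign in some setting, all of them short of an unadjusted p under 0.05 as reported. For maternal LPS, CD34 (0.00 log2) was -0.026 after quantile normalization, -0.044 after median centring and -0.015 with the medulla level as covariate, and -0.048 to 0.041 with 1 piglet left out. KDR (-0.01) was 0.019 after quantile normalization, 0.051 with array weights, 0.0086 in the additive model, 0.035 with the array spread as covariate and 0.016 without piglets 6 and 24, and -0.087 to 0.067 with 1 piglet left out. PECAM1 (0.00) was 0.050, 0.038, 0.0076, 0.071 and 0.036 in the same 5 settings and 0.014 with the medulla level, and -0.032 to 0.044 with 1 piglet left out. ESAM ranged from -0.019 to 0.12. For fish oil versus control the second KDR probe set gave -0.33 (unadjusted p = 0.0384), and for microalgae versus control -0.61 (unadjusted p = 0.002). For maternal LPS it gave -0.25 (limma unadjusted p = 0.0706), where the first gave -0.01. With 1 piglet left out, microalgae versus control ranged from -0.44 to 0.018 in TEK and from -0.20 to 0.030 in KDR, and fish oil versus microalgae from -0.0074 to 0.13 in ECSCR and from -0.16 to 0.024 in ANGPT2. The 2 probe sets of the whole array past the threshold for maternal LPS became 12 without piglet 7, 9 with array weights and 0 in most other settings. The causes were not tested. No paired analysis was possible because each piglet has a dam of its own and the labels give no number shared between groups.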
